A study of Mus musculus with 6 samples.

Results

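The integrated stress response and the unfolded protein response were described in CT26 tumors through 37 named genes. The genes were listed by their known roles in ATF4 signalling, amino acid supply and stress of the endoplasmic reticulum (ER). The list was drawn up with earlier results of these data known. All 37 genes were found among the 23557 genes of the expression table. They were split into 24 genes of the ATF4 arm (stress factors and effectors, amino acid and one-carbon enzymes, amino acid transporters) and 13 genes of the XBP1/ATF6 arm (ER stress sensors, folding proteins, ER-associated degradation). The kinase gene Eif2ak3, which both responses share, was placed with the ER stress sensors of the XBP1/ATF6 arm. CT26 is a colorectal carcinoma line that grows in Balb/c mice, and female mice, 7 weeks old per the study's methods, received 500000 of its cells under the skin. From day 6, 3 mice were injected into the peritoneum 2 times a week with H89, an inhibitor of protein kinase A and other kinases, at 10 mg/kg in NaCl, and 3 control mice received NaCl. Whole tumors were taken at day 14, and their total RNA was sequenced on the BGISEQ-500 platform, with 27067349 to 31958793 estimated read counts per tumor. Each value comes from a tumor together with the host cells in it, so fewer cells of a type and less RNA per cell cannot be told apart. The labels name each tumor by a number, the study counts 3 mice per group, and no batch is given.

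In the integrated stress response, kinases that sense amino acid shortage, misfolded protein, viral RNA or lack of heme phosphorylate the initiation factor eIF2alpha, which lowers translation in general and raises that of the ATF4 mRNA. ATF4 then switches on genes that import and make amino acids and, when stress lasts, genes of cell death such as Ddit3 (CHOP). The unfolded protein response shares the kinase PERK (Eif2ak3) with it and has a pair of further branches, IRE1 (Ern1), which splices the Xbp1 mRNA, and ATF6, which is cleaved to an active factor. Both of these induce ER chaperones and the machinery that removes misfolded proteins from the ER.

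Short promoter motifs are known for both arms. Most promoter windows of the members held none of them, and that of Herpud1 held motifs of both arms. The motifs therefore do not separate the arms here. The stretches around the matches are shown for some of the members with a match. The promoter window of RefSeq on GRCm38.p6 runs from 250 bases before to 50 bases after a start site, and 35 of the 37 members had an entry (Slc7a5 and Atf6 did not). Each stretch is written 5′ to 3′ in the direction of the gene, the motif is in capitals, and a motif on the opposite strand appears as its reverse complement. The first 5 hold the CARE motif, TGATGNAAN, to which ATF4 with a C/EBP partner is known to bind, at genes of the ATF4 arm.
Nupr1: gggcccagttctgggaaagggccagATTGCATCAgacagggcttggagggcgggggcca
Chac1: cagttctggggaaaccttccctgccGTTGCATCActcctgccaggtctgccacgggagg
Asns: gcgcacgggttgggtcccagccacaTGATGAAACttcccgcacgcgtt
Pycr1: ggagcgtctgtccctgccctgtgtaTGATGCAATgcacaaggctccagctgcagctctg
Slc7a11: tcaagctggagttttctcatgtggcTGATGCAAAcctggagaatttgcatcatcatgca
These lie at chr7:126625548-126625606 (Nupr1, minus strand), chr2:119351023-119351081 (Chac1, plus strand), chr6:7693210-7693257 (Asns, minus strand), chr11:120643818-120643876 (Pycr1, minus strand) and chr3:50443646-50443704 (Slc7a11, minus strand). The Slc7a11 window holds a second, inverted CARE 48 bases before the start.

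At genes of the XBP1/ATF6 arm, the matches were to the ER stress elements, ERSE (CCAAT and CCACG, 9 bases apart) and ERSE-II (ATTGG and CCACG, 1 base apart).
Calr: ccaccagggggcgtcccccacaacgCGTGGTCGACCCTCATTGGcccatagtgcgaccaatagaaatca
Canx: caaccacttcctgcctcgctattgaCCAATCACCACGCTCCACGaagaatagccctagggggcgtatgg
Pdia6: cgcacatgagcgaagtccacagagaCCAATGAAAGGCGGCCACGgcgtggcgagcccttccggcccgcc
Herpud1: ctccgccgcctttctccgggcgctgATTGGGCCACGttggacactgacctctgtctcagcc
They lie at chr8:84847050-84847118 (Calr, minus strand), chr11:50325775-50325843 (Canx, minus strand), chr12:17266466-17266534 (Pdia6, plus strand) and chr8:94386352-94386412 (Herpud1, plus strand). Herpud1 was the only member of the XBP1/ATF6 arm whose window also held a CARE, shown here for that reason (chr8:94386291-94386349, plus strand).
Herpud1 CARE: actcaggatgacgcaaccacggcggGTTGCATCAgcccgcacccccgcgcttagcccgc

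Over both strands, a gene was counted if any of its windows held a match. A CARE was found for 8 of the 23 genes of the ATF4 arm with an entry (the 5 above, Trib3, Pck2 and Vldlr). It was found for 1 of the 12 genes of the XBP1/ATF6 arm with an entry. The share was 4.50% of all 27025 genes with a window and 2.88% of the 10375 of them that were tested. An ERSE was found for 0 genes of the ATF4 arm and 3 of the XBP1/ATF6 arm, against 0.14% of all genes and 0.15% of those tested. An ERSE-II was found for Herpud1 alone of the members, against 0.04% and 0.09%. Neither the XBP1 motif TGACGTGG (0.98% of genes tested) nor the cyclic AMP response element TGACGTCA (3.45%) was found for any of the 35 members. CREB, a substrate of protein kinase A, is known to bind the latter. Both motifs are so rare in these windows that their absence from 35 genes says little. A match is a description of the letters and not a measured binding site, and no match says only that these letters are not in the window.

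**Figure D1:**
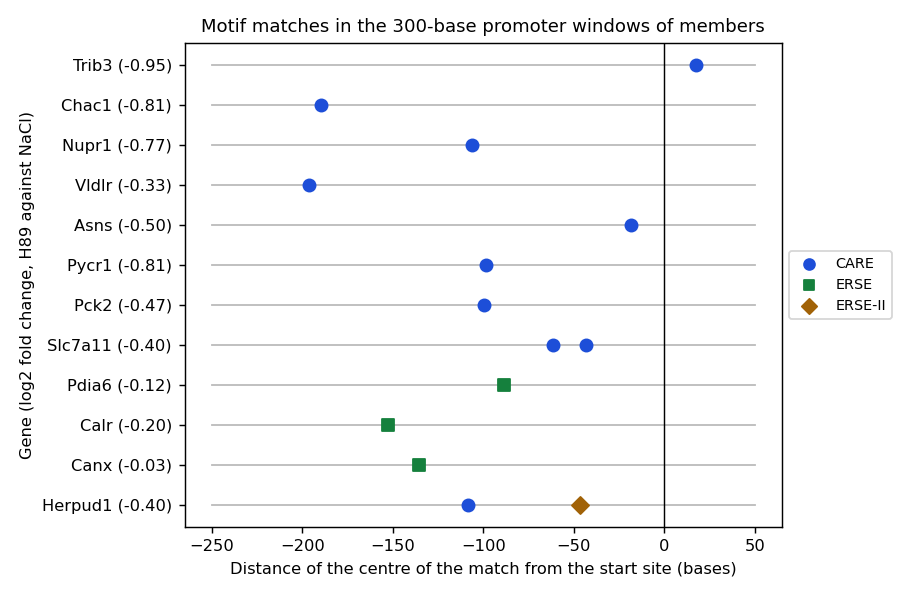
Distance in bases of the centre of each CARE (circle), ERSE (square) or ERSE-II (diamond) match from the RefSeq start site, in the promoter windows (grey lines) of the 12 members with a match, with each member's log2 fold change in brackets. All matches lie before the start except that of Trib3, 17.5 bases after it.

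In H89-treated tumors, most stress effectors (Trib3, Nupr1, Ddit3) and enzymes of amino acid synthesis (Asns, Mthfd2, Pycr1) of the ATF4 arm were lower than in NaCl tumors at an unadjusted p under 0.05. Its transporters were mixed, with Slc7a5 the 1 of 5 that did not overlap between groups, and most genes of the XBP1/ATF6 arm did not pass this threshold. The median log2 fold change was -0.43 over the 24 genes of the ATF4 arm, which is 0.74-fold, and -0.10 over the 13 genes of the XBP1/ATF6 arm, which is 0.93-fold, beside 0.004 over the 13118 genes tested. Over all 37 members, the log2 fold change was below 0 for 33 and above 0 for 4 (Slc38a2, Sdf2l1, Pdia3 and Pdia4). The fold changes come from edgeR's quasi-likelihood test on the estimated counts, with TMM scaling (a correction of library sizes for composition) and genes of at least 0.5 counts per 1000000 (CPM) on average, a filter that all 37 members passed. Levels are given in CPM of each tumor's total, in the order of tumors 1 to 3, without the TMM correction.

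At an unadjusted p under 0.05 in edgeR's quasi-likelihood test, 20 members were lower and 0 were higher in H89-treated tumors, against 11.9% of all genes tested that were lower and 13.1% that were higher. The 20 comprised 18 of the 24 genes of the ATF4 arm and 2 of the 13 genes of the XBP1/ATF6 arm (Xbp1 and Herpud1). Members and arms were chosen with earlier results of these data known, so setting these counts beside all genes is not an independent test. After Benjamini-Hochberg adjustment over all genes tested, 3 members fell (Trib3, Slc7a5 and Nupr1) and 0 rose, against 0.724% of all genes that fell and 0.861% that rose. With quantile normalization in limma in place of TMM, the counts at an unadjusted p under 0.05 were 17 lower and 2 higher (Pdia3 and Slc38a2), against 11.1% of all genes lower and 9.84% higher. The 3 adjusted calls did not hold when any 1 of the 6 tumors was left out, which cut the adjusted calls over all genes from 208 to between 0 and 12. At an unadjusted p under 0.05, 18 of the 20 members were lower in all 6 of these fits, and the exceptions were Slc3a2, lost in 4 of them, and Slc7a11, lost in 4, whose p was just under 0.05 with all tumors.

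All 3 H89-treated tumors were below all 3 NaCl tumors in CPM for 17 members, against 10.0% of all genes tested, and above them for 1 member (Pdia3), against 20.4% of all genes. Of the 17, 14 belonged to the ATF4 arm and 3 to the XBP1/ATF6 arm (Xbp1, Calr and Herpud1). The exact two-sided permutation test of each of these 18 members gave p = 0.1, the smallest that 3 tumors against 3 allow. Groups that do not overlap always give this value, so it adds nothing to the count. With TMM scaling the count was 20 below and 0 above, against 15.5% and 15.2% of all genes, and with quantile normalization 15 below and 2 above, against 15.1% and 11.6%.

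**Figure D2:**
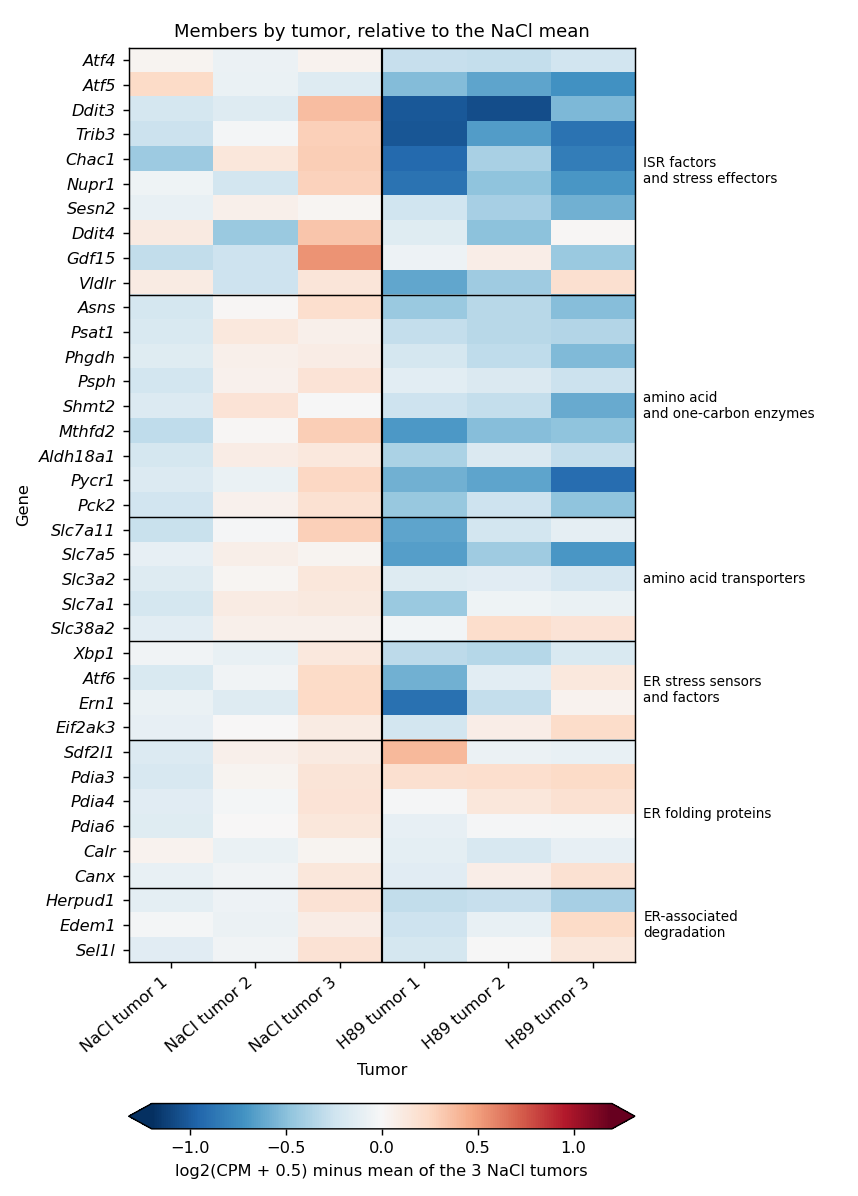
Level of each of the 37 members (rows, by role) in each tumor (columns) as log2(CPM + 0.5) minus the mean of the 3 NaCl tumors, blue for lower and red for higher. The rows of the ATF4 arm (the upper 24) are mostly blue in the 3 H89-treated tumors, with a median of -0.45, -0.34 and -0.49, and the rows of the XBP1/ATF6 arm (the lower 13) are mixed, with -0.21, -0.07 and 0.12.

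The tumors within a group also differed. The median deviation of the ATF4 arm from the NaCl mean was -0.17, 0.02 and 0.16 in the 3 NaCl tumors and -0.45, -0.34 and -0.49 in the 3 H89-treated tumors, on the log2 scale. The groups did not overlap, although NaCl tumor 1 lay below the other NaCl tumors. For the XBP1/ATF6 arm the median was -0.12, -0.04 and 0.14 in NaCl tumors and -0.21, -0.07 and 0.12 in H89-treated tumors, which overlap, and H89-treated tumor 3 was close to NaCl tumor 3. Over all genes tested, the same median ran from -0.03 to 0.02 in NaCl tumors and from 0.02 to 0.12 in H89-treated tumors. The summed level of the 24 genes of the ATF4 arm was 5521 to 5994 CPM in NaCl tumors and 4328 to 4581 CPM in H89-treated tumors, and that of the 13 genes of the XBP1/ATF6 arm was 2830 to 3214 CPM and 2734 to 3048 CPM.

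Among the transcription factors, Atf4 itself was at 581, 542 and 585 CPM in NaCl tumors and 469, 467 and 486 CPM in H89-treated tumors. Every H89-treated tumor was below every NaCl tumor, and the spread within each group was small. The log2 fold change was -0.33 ± 0.08 (SE, n = 3 per group), a level 20.7% lower, and edgeR's quasi-likelihood test gave an adjusted p of 0.0800. This is the amount of the mRNA, whereas ATF4 is mainly controlled in its translation, which was not measured.

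Atf5, a related factor that is translated in the same way, was the most abundant stress factor per length, with 625 CPM per kb in NaCl tumors. It was at 1321, 1070 and 1015 CPM in NaCl tumors and 786, 726 and 681 CPM in H89-treated tumors. The groups were well apart. The log2 fold change was -0.70 ± 0.14 with an adjusted p of 0.0515. Exons of Il4i1 and Nup62 overlap it on the opposite strand, and the strand used in counting is not given in the sources used here, so reads of these genes cannot be told apart.

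Ddit3, which encodes CHOP, was at 60.8, 63.1 and 90.9 CPM in NaCl tumors and 34.5, 33.5 and 48.4 CPM in H89-treated tumors. Tumor 3 was the highest of its group in both, and the groups did not overlap. The log2 fold change was the lowest of the 37 members, at -0.96 ± 0.18, and edgeR's quasi-likelihood test gave an adjusted p of 0.0504. Exons of Mars, a tRNA synthetase gene, and of Gm4189 overlap Ddit3 on the opposite strand.

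Trib3, a pseudokinase that ATF4 and CHOP induce, lies at chr2:152337422-152344032 (GRCm38, GENCODE M21). It was at 65.8, 77.4 and 96.5 CPM in NaCl tumors and 38.5, 49.5 and 42.4 CPM in H89-treated tumors. The lowest NaCl tumor was above the highest H89-treated tumor. Trib3 fell by 0.95 ± 0.15 on the log2 scale, edgeR's quasi-likelihood test gave an adjusted p of 0.0407, and with 1 tumor left out in turn the adjusted p ran from 0.0663 to 0.142.

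Nupr1, a small stress-induced chromatin protein at chr7:126623249-126630861, was at 93.8, 83.1 and 118 CPM in NaCl tumors and 52.4, 69.2 and 59.4 CPM in H89-treated tumors. The groups did not overlap. Nupr1 fell by 0.77 ± 0.15 on the log2 scale (edgeR's quasi-likelihood test, adjusted p = 0.0496, and 0.0795 to 0.142 with 1 tumor left out in turn). Chac1, a glutathione-degrading enzyme, was at 26.1, 39.1 and 43.6 CPM in NaCl tumors and 18.4, 27.0 and 19.8 CPM in H89-treated tumors. NaCl tumor 1 was just below H89-treated tumor 2, so the groups overlapped in CPM, though not after TMM scaling, and the log2 fold change was -0.81 ± 0.21 (adjusted p = 0.0813).

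The other 4 stress effectors had log2 fold changes from -0.47 to -0.31. Sesn2, which restrains mTORC1, was lower in each H89-treated tumor (34.0 to 43.1 CPM against 48.1 to 53.1 CPM). Ddit4, a further mTORC1 inhibitor, the receptor gene Vldlr and the stress cytokine Gdf15 overlapped between groups and were not lower at an unadjusted p under 0.05. Gdf15 was close to absent, at 1.00 CPM or less in every tumor. In all, 10 of the 10 stress factors and effectors had a fold change below 0, 7 at an unadjusted p under 0.05, with a median log2 fold change of -0.59.

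**Figure D3:**
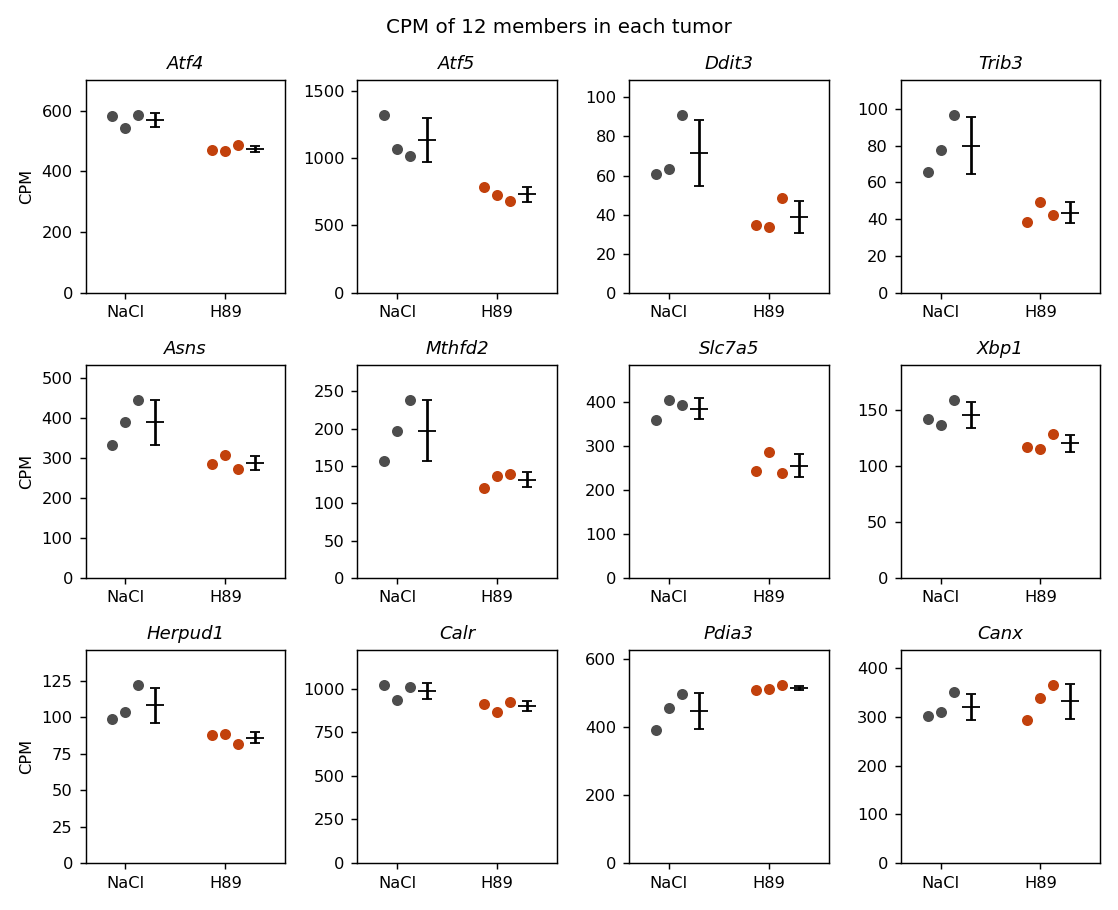
CPM of 12 members in each of the 3 NaCl (grey) and 3 H89-treated (orange) tumors, with the mean and SD as black bars and axes starting at 0. Atf4, Atf5, Ddit3, Trib3, Asns, Mthfd2, Slc7a5, Xbp1, Herpud1 and Calr each have all 3 orange points below the grey ones, Pdia3 has them above, and Canx overlaps.

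The enzymes that make non-essential amino acids and one-carbon units, which ATF4 is known to induce, were lower as a group: 9 of 9 had a fold change below 0, 8 were lower at an unadjusted p under 0.05, and the median log2 fold change was -0.44. After adjustment 0 passed in edgeR and 8 in DESeq2, where 5.68% of all genes with an adjusted p were lower. Asns, asparagine synthetase, was at 332, 389 and 443 CPM in NaCl tumors and 284, 306 and 271 CPM in H89-treated tumors. The groups did not overlap, and the log2 fold change was -0.50 ± 0.12 (edgeR's quasi-likelihood test, adjusted p = 0.0721). Psat1, of the serine pathway, was at 370, 458 and 439 CPM in NaCl tumors and 344, 333 and 329 CPM in H89-treated tumors, again without overlap (log2 fold change -0.40 ± 0.10, adjusted p = 0.0800).

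Mthfd2, the mitochondrial folate enzyme, was at 157, 197 and 238 CPM in NaCl tumors and 120, 136 and 139 CPM in H89-treated tumors. All 3 H89-treated values were below the lowest NaCl value, and the log2 fold change was -0.65 ± 0.14 (edgeR's quasi-likelihood test, adjusted p = 0.0615). Pycr1, which completes proline synthesis in mitochondria, was at 14.7, 15.6 and 19.7 CPM in NaCl tumors and 10.9, 10.5 and 8.50 CPM in H89-treated tumors. It had the lowest fold change of the enzymes, -0.81 ± 0.17 on the log2 scale (adjusted p = 0.0609), and the lowest level per length.

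Shmt2, which moves a carbon from serine to folate in mitochondria, was the most abundant enzyme per length (254 CPM per kb in NaCl tumors). It was at 518, 648 and 578 CPM in NaCl tumors and 487, 475 and 380 CPM in H89-treated tumors. The groups did not overlap, but H89-treated tumor 1 was close to NaCl tumor 1 (log2 fold change -0.44 ± 0.14, adjusted p = 0.110). An exon of Ndufa4l2 overlaps it on the opposite strand. The other 4 enzymes, Phgdh and Psph of serine synthesis, Aldh18a1 of proline synthesis and Pck2, the mitochondrial form of a gluconeogenic enzyme, had log2 fold changes from -0.47 to -0.26, and Psph alone of the 9 did not pass an unadjusted p of 0.05.

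**Figure D4:**
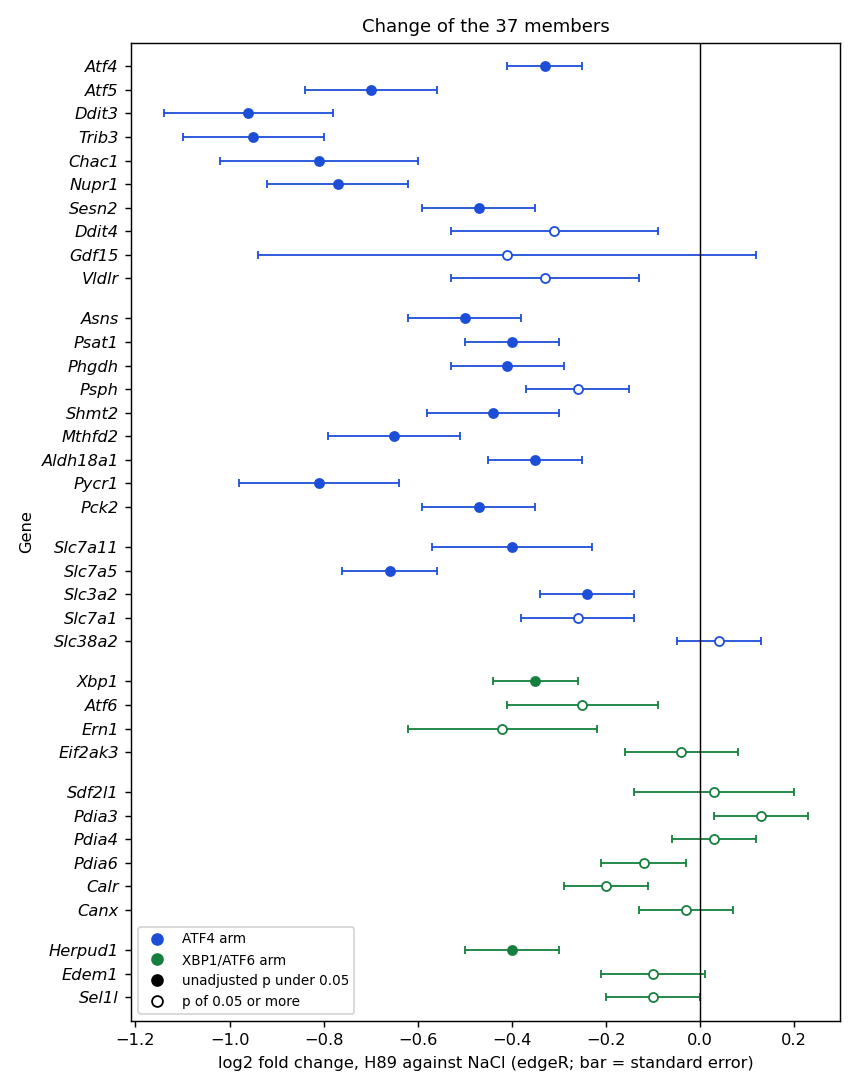
Log2 fold change of H89 against NaCl for the 37 members, with its standard error (edgeR), in blue for the ATF4 arm and green for the XBP1/ATF6 arm; filled points have an unadjusted p under 0.05. The 18 filled blue points lie between -0.96 and -0.24, and the 2 filled green points (Xbp1 and Herpud1) at -0.35 and -0.40.

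The 5 transporters differed among themselves. Slc7a5 (chr8:121881150-121907694), the light chain of the exchanger that brings in leucine and other large neutral amino acids, was at 358, 403 and 392 CPM in NaCl tumors and 242, 286 and 237 CPM in H89-treated tumors. The groups were far apart. Slc7a5 fell by 0.66 ± 0.10 on the log2 scale, edgeR's quasi-likelihood test gave an adjusted p of 0.0407, and with 1 tumor left out in turn the adjusted p ran from 0.0663 to 0.142.

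Its heavy chain Slc3a2, the most abundant transporter per length (149 CPM per kb in NaCl tumors), was at 243, 274 and 297 CPM in NaCl tumors and 243, 246 and 234 CPM in H89-treated tumors. NaCl tumor 1 lay among the H89-treated tumors, and the log2 fold change was -0.24 ± 0.10 (edgeR's quasi-likelihood test, adjusted p = 0.178). The cystine carrier Slc7a11, which pairs with the same heavy chain, and the arginine and lysine carrier Slc7a1 overlapped between groups, with log2 fold changes of -0.40 and -0.26. Slc38a2, a sodium-coupled carrier of small neutral amino acids, was the 1 gene of the ATF4 arm with a fold change above 0 (0.04 ± 0.09 on the log2 scale, with TMM scaling). Its sign is not stable, as with 1 tumor left out it ran from -0.0037 to 0.09, and it was 0.22 with quantile normalization.

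Among the ER stress sensors and factors, Xbp1, the factor that IRE1 activates, was the most abundant per length (68.7 CPM per kb in NaCl tumors). It was at 142, 137 and 159 CPM in NaCl tumors and 117, 115 and 129 CPM in H89-treated tumors. The groups did not overlap, and the log2 fold change was -0.35 ± 0.09 (edgeR's quasi-likelihood test, adjusted p = 0.0800). The values are summed over the gene, so the spliced and unspliced forms were not distinguished.

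The other 3 sensors overlapped between groups. Atf6 was at 123, 135 and 163 CPM in NaCl tumors and 93.5, 128 and 152 CPM in H89-treated tumors (log2 fold change -0.25 ± 0.16). Ern1, the gene of IRE1, was at 93.5, 89.3 and 117 CPM and at 52.9, 81.3 and 102 CPM (-0.42 ± 0.20). Eif2ak3, the gene of PERK, was at 21.6, 23.4 and 24.9 CPM and at 19.9, 24.6 and 27.2 CPM (-0.04 ± 0.12, with 0.01 and 0.05 when NaCl tumor 3 or H89-treated tumor 1 was left out). In all of these 3 genes H89-treated tumor 1 was the lowest of the 6 tumors and H89-treated tumor 3 was above the lowest NaCl tumor. None had an unadjusted p under 0.05.

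The 6 ER folding proteins showed no common direction. Their median log2 fold change was 0.00, with 0 genes lower or higher at an unadjusted p under 0.05 in edgeR, and 0 after adjustment in DESeq2 as well. Calr, the calcium-binding chaperone calreticulin and the most abundant folding protein per length (452 CPM per kb in NaCl tumors), was at 1019, 935 and 1010 CPM in NaCl tumors and 910, 866 and 925 CPM in H89-treated tumors. Every H89-treated tumor was lower, by a small amount (log2 fold change -0.20 ± 0.09, edgeR's quasi-likelihood test, adjusted p = 0.203), and with quantile normalization the value was 0.01.

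Pdia3, a disulfide isomerase that works with calreticulin, was the 1 member higher in every H89-treated tumor, with 508 to 521 CPM against 390 to 496 CPM. The log2 fold change was 0.13 ± 0.10 (edgeR's quasi-likelihood test, adjusted p = 0.430), the groups overlapped after TMM scaling, and an exon of Catsper2 overlaps it on the opposite strand. Pdia4, Pdia6, Sdf2l1 and the membrane-bound chaperone Canx overlapped between groups, with log2 fold changes from -0.12 to 0.03 under TMM scaling. Under quantile normalization the sign was the opposite for Pdia6 (0.01), Canx (0.08) and Sdf2l1 (-0.03).

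Of the 3 genes of ER-associated degradation, Herpud1, a membrane protein of the retrotranslocation complex, was at 99.1, 104 and 122 CPM in NaCl tumors and 88.0, 88.8 and 81.7 CPM in H89-treated tumors. It was the most abundant of the 3 per length (55.5 CPM per kb in NaCl tumors) and did not overlap between groups. The log2 fold change was -0.40 ± 0.10 (edgeR's quasi-likelihood test, adjusted p = 0.0827). Edem1 and Sel1l, which recognise and hand over misfolded glycoproteins, overlapped between groups, each with a log2 fold change of -0.10.

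By promoter motif, the 8 genes of the ATF4 arm with a CARE in the window had a median log2 fold change of -0.64, from -0.95 to -0.33, and the 15 without one had a median of -0.40, from -0.96 to 0.04. Herpud1, which holds both a CARE and an ERSE-II, had the lowest fold change (-0.40) of the 4 members with an ERSE or ERSE-II, whose median was -0.16. The 2 ranges of the ATF4 arm overlap, and genes without a CARE in 300 bases include Ddit3, Atf5 and Mthfd2.

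Other genes of the same pathways were counted from lists of the cell's stress machinery. These lists, too, were chosen with earlier results of these data known, so their counts are not independent of the members. Of 20 further genes linked to ATF4 that were tested, 12 were lower and 1 was higher at an unadjusted p under 0.05. Of all genes tested, 11.9% were lower and 13.1% higher. The median log2 fold change of the 20 was -0.36. Eif4ebp1, a repressor of cap-dependent translation, was at 575, 561 and 585 CPM in NaCl tumors and 371, 376 and 382 CPM in H89-treated tumors, with little spread in either group. It fell by 0.68 ± 0.08 on the log2 scale (edgeR's quasi-likelihood test, adjusted p = 0.0338). Lonp1, a mitochondrial protease, fell by 0.77 ± 0.14 (adjusted p = 0.0481), and the gene higher at an unadjusted p was Slc7a3, a scarce arginine carrier (0.76 ± 0.22, adjusted p = 0.0963).

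Of 19 cytosolic aminoacyl-tRNA synthetases, which load amino acids onto tRNA, 17 had a fold change below 0. The median log2 fold change of the 19 was -0.24. At an unadjusted p under 0.05, 9 were lower and 0 higher, against 11.9% and 13.1% of all genes tested. Aars, the alanyl-tRNA synthetase, was at 429, 460 and 489 CPM in NaCl tumors and 311, 318 and 355 CPM in H89-treated tumors. It fell by 0.56 ± 0.08 (edgeR's quasi-likelihood test, adjusted p = 0.0407). The count of 9 was 5 without NaCl tumor 2 and with quantile normalization.

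The 14 genes for eIF2alpha kinases, phosphatase subunits, eIF2 subunits and regulators of these were mixed. At an unadjusted p under 0.05, 3 were lower and 3 higher. Of all genes tested, 11.9% were lower and 13.1% higher. Ppp1r15a (GADD34), the stress-induced subunit that directs dephosphorylation of eIF2alpha, was at 58.5, 70.3 and 107 CPM in NaCl tumors and 34.7, 41.5 and 54.2 CPM in H89-treated tumors, without overlap (log2 fold change -0.93 ± 0.23, edgeR's quasi-likelihood test, adjusted p = 0.0764). Eif2ak2 (PKR), the kinase for double-stranded RNA and an interferon-induced gene, was at 42.4, 49.7 and 38.7 CPM in NaCl tumors and 78.2, 62.9 and 72.6 CPM in H89-treated tumors. It was higher in every H89-treated tumor (0.64 ± 0.13, adjusted p = 0.0523).

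The further ER genes had medians nearer to 0. Over 59 chaperones, oxidoreductases, degradation, translocation and vesicle coat genes, the median log2 fold change was -0.09. At an unadjusted p under 0.05, 9 were lower and 1 (Edem3) was higher, against 11.9% and 13.1% of all genes tested. After adjustment 0 passed in edgeR, 1 in DESeq2 and 4 in voom with quality weights, where 6.78% of all genes were lower. The count of 9 lower genes depended on single tumors: it was 15 without H89-treated tumor 1, 3 without NaCl tumor 3, 4 without H89-treated tumor 2 and 5 without H89-treated tumor 3. Edem3, a mannosidase-like protein of ER-associated degradation, had a log2 fold change of 0.28 ± 0.11. Hsp90b1, the chaperone GRP94, was at 0.19 ± 0.09 and did not pass. Of 12 tested genes of the wider ER stress factor network, 3 were lower and 0 higher, against the same 11.9% and 13.1% of all genes. The median log2 fold change of the 12 was -0.13. Bbc3, which encodes the cell death activator PUMA, fell by 0.61 ± 0.10 (edgeR's quasi-likelihood test, adjusted p = 0.0417). With 1 tumor left out in turn, the adjusted p of Eif4ebp1, Lonp1, Aars and Bbc3 was between 0.0663 and 0.145.

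**Figure D5:**
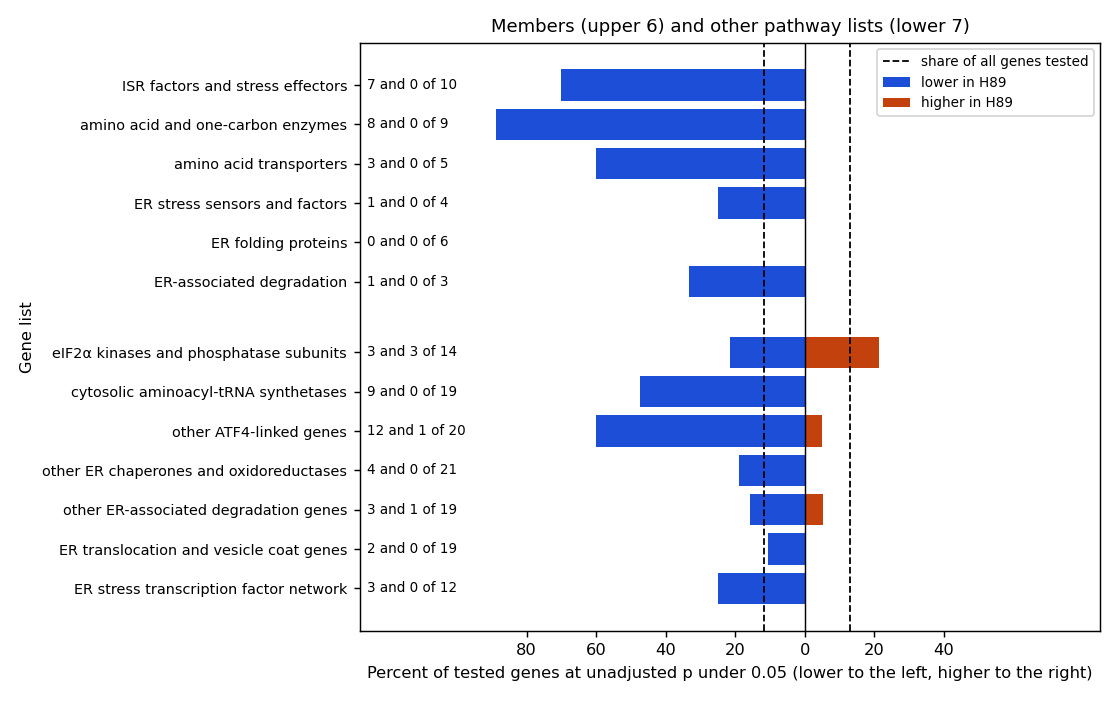
Percent of tested genes in each of the 6 roles of the members (upper) and in 7 other pathway lists (lower) that were lower (blue, to the left) or higher (orange, to the right) at an unadjusted p under 0.05, with the counts lower and higher of the number tested, and dashed lines at the share of all genes tested (11.9% lower and 13.1% higher). The shares lower reach 8 of 9 amino acid and one-carbon enzymes and 12 of 20 other ATF4-linked genes, against 0 of 6 ER folding proteins.

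Marker genes of some cell types moved with the groups, and their part in the differences above was not tested. The summed level of 8 fibroblast genes, all present in the test, was 2524 to 2675 CPM in NaCl tumors and 3058 to 3603 CPM in H89-treated tumors. Markers of T cells summed to 16.2 to 36.6 CPM and 34.0 to 88.6 CPM, which overlap, with a fold change above 0 for 8 of the 8 tested. Of the 12 listed colon epithelial and carcinoma genes, Muc2 was not in the expression table. The rest summed to 115 to 128 CPM in NaCl tumors and 88.5 to 104 CPM in H89-treated tumors. That sum rests on Krt20 and Krt18, whose log2 fold changes were -0.47 and -1.04. The other 5 of the 7 tested genes had fold changes above 0, among them the scarce Krt7 (1.43, higher in every H89-treated tumor), Krt19 (2.56) and Krt8 (1.03). Of the defining markers, Epcam was at 1.16 CPM in H89-treated tumor 1 and under 0.1 CPM in the other 5 tumors, and Cdx1 was at 0 in 4 tumors. The plasma cell list, which shares the secretory machinery, summed to 102 to 114 CPM and 82.6 to 102 CPM, mostly from Sdc1 and Fkbp11. Its scarce genes Jchain, a subunit of secreted antibodies, and Irf4, a plasma cell factor, went the other way and were higher in every H89-treated tumor, with log2 fold changes of 2.83 and 0.97 at levels of 4.07 CPM or less. Macrophage (1176 to 2020 CPM and 1695 to 2075 CPM), proliferation (1732 to 1991 CPM and 1880 to 2170 CPM) and hypoxia genes (2899 to 5679 CPM and 2888 to 5142 CPM) overlapped between groups, as did neutrophil, endothelial, adipocyte, keratinocyte and erythroid genes. Skeletal muscle genes summed to 20.1 CPM in H89-treated tumor 1 and to 2.86 CPM or less in the other tumors.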

How the data were processed

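RNA sequencing of 6 CT26 tumors, 3 per group by the labels, was analysed. The authors deposited 1 table whose name speaks of TPM, but the values of a tumor sum to 27067349 or more and 58.6% to 61.4% of values above 0 lie within 0.01 of a whole number. The deposited values were therefore read as estimated counts per gene, as kallisto gives them, with no scaling. The submitters' processing notes name kallisto, DESeq2 and GRCm38, and versions, annotation and strand are not given in the sources used here. The members, arms, lists and marker genes were chosen with earlier results of these data known.

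Counts were rounded and tested with edgeR 4.0.16 in R 4.3.3 (TMM, glmQLFit, glmQLFTest, treatment as the only term) over 13118 genes with a mean of at least 0.5 CPM, with Benjamini-Hochberg adjustment over all of them. The SE was derived as the size of the log2 fold change over the root of its F statistic. Named with all values are the 12 members with the smallest p, the most abundant per length of each role, and Atf4, Atf5, Ddit3, Xbp1, Atf6, Ern1 and Eif2ak3. Of other lists, genes with the smallest p in each direction or an adjusted p under 0.05 and an absolute log2 fold change above 0.5 may be named, Slc38a2, Pdia3 and marker genes being named for their values. Per-length levels divide CPM by the length of the longest principal GENCODE M21 transcript. Of 276 listed genes in the table, 273 matched GENCODE by symbol. A further 7 listed genes were absent from the table under the symbols searched.

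Other settings were median ratio or quantile normalization, no filter or a minimum mean of 5 CPM, DESeq2 1.42.0, limma 3.58.1 on log2(CPM + 0.5), voom with quality weights, a block for the replicate number, and leaving out single tumors. The p-values weigh the difference between groups against the spread between tumors, with 3 per group. In edgeR, the spread of each gene was moderated over all genes tested.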

Additional observations from a re-analysis of the deposited data

How the results depend on the processing

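The number of members that fell after adjustment depended on the test: 3 with edgeR (0.724% of all genes fell), 7 with no filter (0.887%), 5 with median ratio normalization (0.976%), 1 with quantile normalization (Trib3; 0.191%), and 18 each with DESeq2 (5.68%) and with voom with quality weights (6.78%). Over all genes, either direction, these tests called 208, 311, 251, 80, 1392 and 1687 genes. It was 0 with any 1 of the 6 tumors left out, when 0 to 12 of all genes were called. At an unadjusted p under 0.05, 17 to 24 members were lower in every alternative and 0 were higher, except 2 with quantile normalization. Members higher in every H89-treated tumor numbered 0 with TMM scaling and 2 with quantile normalization. Lower tRNA synthetases numbered 5 with quantile normalization and 5 to 10 with 1 tumor left out, and lower genes of the 3 ER lists 5 with quantile normalization, 17 with voom and 3 to 15 with 1 tumor left out. The median log2 fold change ran from -0.51 to -0.38 for the ATF4 arm and from -0.16 to -0.04 for the XBP1/ATF6 arm over all alternatives. The cause of these differences was not tested.

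The sign was the same in all 14 alternatives for 29 members. It turned for Gdf15 (0.04 with voom, and -0.67 to 0.26 with 1 tumor left out, 0.26 being without NaCl tumor 3), Slc38a2 (-0.00096 without NaCl tumor 1, -0.0037 without H89-treated tumor 2, and up to 0.09 with another left out), Eif2ak3 (0.01 without NaCl tumor 3, 0.05 without H89-treated tumor 1), Pdia4 (-0.02 without NaCl tumor 1, to 0.12 without NaCl tumor 3), Pdia6 (0.01 with quantile normalization) and Calr (0.01 with quantile normalization). For Sdf2l1 it was -0.03 with quantile normalization, -0.11 with voom, and -0.04 and -0.18 without NaCl or H89-treated tumor 1, to 0.14 without H89-treated tumor 3. For Canx it was 0.005 at a mean of at least 5 CPM, 0.08 with quantile normalization, 0.02 with voom, and 0.04 and 0.03 without NaCl tumor 3 or H89-treated tumor 1, to -0.07 without H89-treated tumor 3.

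Tumors of the same number share only that number: the correlations of their deviations from the group means were 0.16, 0.06 and -0.02, and not every tumor correlated best with its own number. With the replicate number as a block, 0 members fell after adjustment, as did 0 of all genes, and 24 were lower at an unadjusted p under 0.05. Other pseudocounts for TPM, planned in case the table held TPM, were not run because it holds estimated counts. Gdf15, with 8 to 28 counts, is limited by depth, and 3 tumors per group limit the rest.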
